A study of Mus musculus with 6 samples.

Results

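The genes described here are 10 non-collagen components of the extracellular matrix: *Sparc*, *Fn1*, *Thbs1*, *Postn*, *Fstl1*, *Bgn*, *Dcn*, *Fbn1*, *Lox* and *Spp1*. They were taken by gene symbol from a table of 22248 genes, and all 10 were found. The set was chosen by the FPKM difference between the genotypes in these same libraries. Their levels are therefore given as a description, with no p-value, and support no further statement.

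The libraries are RNAseq of BMDMs (bone-marrow-derived macrophages), obtained by culturing bone marrow with macrophage colony-stimulating factor. There were 3 control (Lyz2cre) and 3 CITED2-deficient (Cited2 fl/fl:Lyz2cre) libraries, all from C57BL/6 mice at postnatal week 10 according to the labels, whereas the study's methods give a younger age for the marrow donors. The comparison asks how loss of CITED2, a transcriptional co-regulator, changes gene expression in unstimulated macrophages. The control cells carried the Lyz2 Cre allele and no floxed *Cited2* allele, and the CITED2-deficient cells carried the same Cre allele with both *Cited2* alleles floxed. Cre is made from the *Lyz2* locus in myeloid cells, so any cell of the culture that does not use this locus would keep *Cited2*. No source used here ties a library to a mouse, so the p-values below measure only the spread between these libraries.

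The extracellular matrix is the secreted scaffold around cells. Fibronectin and fibrillin-1 form its fibres, lysyl oxidase crosslinks collagen and elastin within it, and small leucine-rich proteoglycans such as biglycan and decorin bind along collagen fibrils. Matricellular proteins, among them SPARC, thrombospondin-1, periostin and osteopontin, are secreted into the matrix and act on cell adhesion and growth factor signals. Fibroblasts and other stromal cells are the main source of most of these proteins, while macrophages are well known for osteopontin, thrombospondin-1 and fibronectin.

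The levels are FPKM, fragment numbers divided by transcript length and by the number of mapped fragments. The number of mapped fragments, inferred from the size of the FPKM steps, was 17289286 to 18952077 per control library. It was 22583995 to 26100410 per CITED2-deficient library, a ratio of group means of 1.34. *Cited2* itself was at 71.7, 79.3 and 75.5 FPKM in control libraries 1, 2 and 3 and at 9.27, 7.22 and 7.53 FPKM in CITED2-deficient libraries 1, 2 and 3, which matched the labels. Of the 11687 genes that averaged 1 FPKM or more, 1950 (16.7%) were higher and 4044 (34.6%) lower in CITED2-deficient BMDMs by limma at an adjusted p under 0.05. With libraries rescaled by median ratios, which moved the median log2 difference of all tested genes from -0.10 to -0.0069, the split was 2696 higher and 2490 lower. All 10 matrix genes passed the filter, *Fbn1* and *Postn* only through the CITED2-deficient group.

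The sequences just before the transcription start are shown for *Postn*, *Spp1* and *Bgn*, because *Postn* and *Spp1* have the largest and the smallest ratio of group means in the set (8.80 and 1.13) and *Bgn* is a proteoglycan between them. The windows shown do not touch an annotated exon. *Postn* and *Spp1* have 2 windows each, and the one nearest the annotated gene start is shown. RefSeq promoter windows (assembly GRCm38.p6, the mm10 genome) were found for 6 of the 10 genes, in 8 windows. The 250 bases upstream of the start are printed 5′ to 3′ on the gene strand, at chr3:54360857-54361106 for *Postn*, chr5:104434861-104435110 for *Spp1* and chrX:73483351-73483600 for *Bgn*, all on the plus strand. Capitals mark TATAAA and CCAAT boxes, the GC box GGGCGG and the interferon-stimulated response element, each on either strand.
Postn: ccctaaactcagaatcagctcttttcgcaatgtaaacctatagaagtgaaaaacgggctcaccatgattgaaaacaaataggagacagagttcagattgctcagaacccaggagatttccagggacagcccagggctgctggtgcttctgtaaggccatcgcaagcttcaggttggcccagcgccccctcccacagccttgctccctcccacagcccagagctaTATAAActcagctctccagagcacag
Spp1: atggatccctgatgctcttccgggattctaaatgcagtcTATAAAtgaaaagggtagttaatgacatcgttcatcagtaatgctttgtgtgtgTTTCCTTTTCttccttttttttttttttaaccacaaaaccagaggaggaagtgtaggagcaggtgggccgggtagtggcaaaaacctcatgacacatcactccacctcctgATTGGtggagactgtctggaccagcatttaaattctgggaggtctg
Bgn: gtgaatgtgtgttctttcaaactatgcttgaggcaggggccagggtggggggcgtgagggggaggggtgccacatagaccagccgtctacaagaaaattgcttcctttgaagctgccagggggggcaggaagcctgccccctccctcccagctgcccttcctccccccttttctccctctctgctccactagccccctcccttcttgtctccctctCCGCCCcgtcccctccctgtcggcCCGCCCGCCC

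The *Postn* window held a TATA box 26 bases before the start, and the *Spp1* window held a CCAAT box 46 bases before it. The *Spp1* window also held TATAAA at 211 and an interferon-stimulated response element at 157 bases before the start. The *Bgn* window had no TATA box and held 3 GC boxes, at 34, 10 and 6 bases, of which the last pair overlap each other, and a GC content of 64.4%. The GC content was 52.0% for *Postn* and 43.6% for *Spp1*, against a median of 52.4% over 32851 windows. No capitals of different motifs overlap in these windows.

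Among the 8 windows, 2 held TATAAA (12.4% of all windows did), 1 held CCAAT (33.8%), 3 held GGGCGG (32.7%) and 2 held the interferon-stimulated response element (2.98%), those of *Spp1* and *Fbn1*. The E box letters CANNTG, not capitalised, stood in 4 of the 8 windows (66.2% of all). The AP-1 letters TGANTCA (6.75% of all windows), the STAT and BCL6 letters TTCNNNGAA (7.02%) and the SMAD letters GTCTAGAC (0.167%) stood in none of the 8. Overlapping matches were allowed, and a missing match says only that these letters are not in the window. Of the windows not shown, that of *Fbn1* and the second of *Spp1* lay wholly in annotated exons (250 bases). The *Sparc* and *Fstl1* windows held 238 and 182 such bases.

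In CITED2-deficient BMDMs, the levels of all 10 genes lay above those of every control library, as did 19.0% of the tested genes, while 40.9% of the tested genes lay below every control library in each CITED2-deficient library. The log2 difference in log2(FPKM + 1) ran from 0.18 for *Spp1* to 2.30 for *Lox*, with a median of 1.63, beside a median of -0.10 over all tested genes. Within the CITED2-deficient group the libraries were not alike. Library 1 was the highest of the 3 for 9 of the 10 genes, with *Dcn* the exception. Leaving it out lowered the median log2 difference to 1.35. The 10 differences stayed above 0, as they must where the groups do not overlap. In bulk RNA, a change in the number of cells of a type cannot be told apart from a change in RNA per cell.

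**Figure D1:**
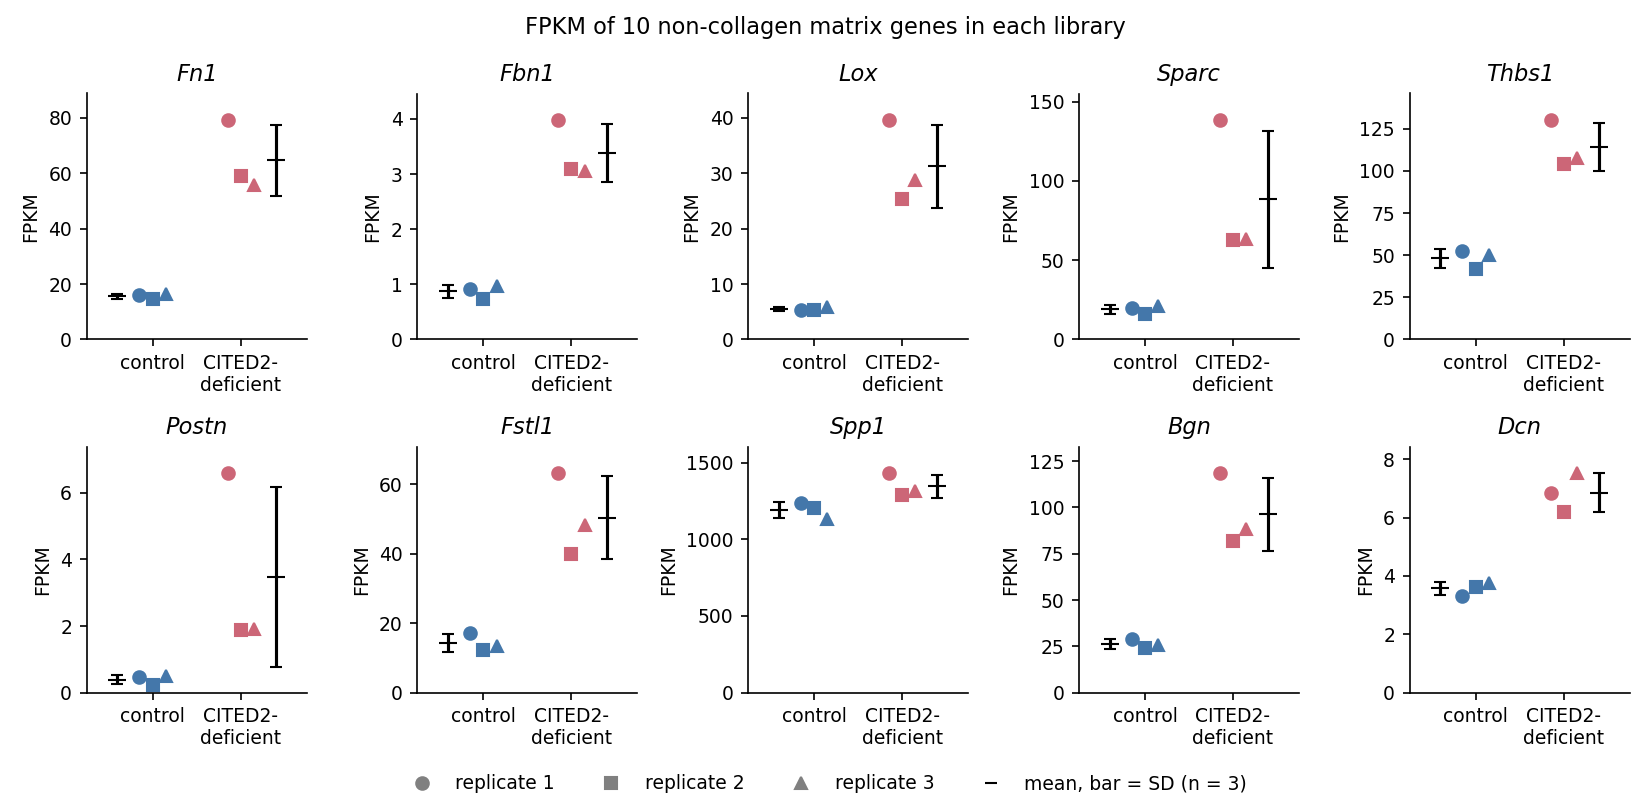
FPKM (y axis, from 0, a separate scale per gene) of the 10 matrix genes in 3 control (blue) and 3 CITED2-deficient (red) libraries, with symbols for the replicate number, and the mean with its SD beside each group. Every red point lies above every blue point, and CITED2-deficient replicate 1 is the highest for each gene other than *Dcn*.

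*Fn1* (ENSMUSG00000026193, mm10 chr1:71585520-71653200, minus strand) encodes fibronectin, the adhesive glycoprotein that cells bind through integrins. It was at 16.0, 14.5 and 16.2 FPKM in control libraries 1 to 3 and at 79.3, 58.9 and 55.8 FPKM in CITED2-deficient libraries 1 to 3. The controls were close together, and the lowest CITED2-deficient library was 3.44 times the highest control. The group means were 15.6 ± 0.965 and 64.7 ± 12.7 FPKM (SD, n = 3), a log2 difference of 1.97 (SE 0.12), or 1.82 without CITED2-deficient library 1.

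*Fbn1* (ENSMUSG00000027204, chr2:125300594-125507993, minus strand) encodes fibrillin-1, the backbone of microfibrils. Control libraries 1 to 3 held 0.909, 0.738 and 0.967 FPKM, and CITED2-deficient libraries 1 to 3 held 3.98, 3.09 and 3.06 FPKM. The gene was low in every library, but its long transcript gave 101 to 145 fragments per control library and 553 to 801 per CITED2-deficient library. The means were 0.871 ± 0.119 and 3.38 ± 0.524 FPKM (SD, n = 3). The log2 difference was 1.22 (SE 0.13) with the pseudocount of 1 and 1.84 with 0.1, since a pseudocount shrinks the difference of a low gene.

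*Lox* (ENSMUSG00000024529, on chromosome 18) encodes lysyl oxidase, the enzyme that starts collagen and elastin crosslinks. Its control levels were 5.31, 5.23 and 5.84 FPKM and its CITED2-deficient levels 39.7, 25.4 and 28.7 FPKM, in the order of libraries 1 to 3. This was the widest separation of the set, the lowest CITED2-deficient library being 4.34 times the highest control. The means of 5.46 ± 0.334 and 31.2 ± 7.48 FPKM (SD, n = 3) gave a log2 difference of 2.30 (SE 0.14), or 2.12 without CITED2-deficient library 1.

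*Sparc* (ENSMUSG00000018593, chr11:55394500-55423183, minus strand) encodes a collagen-binding matricellular glycoprotein of bone and connective tissue. Control libraries 1 to 3 were at 20.0, 15.8 and 20.8 FPKM, and CITED2-deficient libraries 1 to 3 at 138, 63.0 and 63.4 FPKM. Libraries 2 and 3 of the CITED2-deficient group were nearly equal, and library 1 was 2.19 times their mean. The means were 18.9 ± 2.67 and 88.3 ± 43.5 FPKM (SD, n = 3), and the log2 difference of 2.07 (SE 0.26) became 1.70 without that library.

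*Postn* (ENSMUSG00000027750, chr3:54361109-54391037, plus strand) encodes periostin, a matricellular protein of periosteum and fibroblasts. It was at 0.465, 0.229 and 0.487 FPKM in control libraries 1 to 3, and at 6.59, 1.89 and 1.92 FPKM in CITED2-deficient libraries 1 to 3. These values rested on 20, 9 and 21 control fragments and on 381, 97 and 114 CITED2-deficient fragments. The groups did not overlap, yet library 1 of the CITED2-deficient group stood 3.46 times above the mean of the other two, the widest gap of the set. The means were 0.394 ± 0.143 and 3.47 ± 2.71 FPKM (SD, n = 3), and the log2 difference was 1.53 (SE 0.34), or 1.06 without that library. *Postn* is also the gene whose difference moved most with the scale, to 2.65 with a pseudocount of 0.1.

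*Thbs1* (ENSMUSG00000040152, chr2:118111876-118127133, plus strand) encodes thrombospondin-1, a secreted protein that binds CD36 and CD47 and can activate latent TGF-beta. Its control levels were 52.5, 41.9 and 49.8 FPKM, and its CITED2-deficient levels 130.3, 104 and 108 FPKM. The lowest CITED2-deficient library was 1.98 times the highest control, and library 1 was only 1.23 times the mean of the other two. The means were 48.1 ± 5.53 and 114 ± 14.2 FPKM (SD, n = 3), with a log2 difference of 1.23 (SE 0.10).

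*Fstl1* (ENSMUSG00000022816, chr16:37776873-37836514, plus strand) encodes follistatin-like 1, a secreted glycoprotein related to SPARC. Control libraries 1 to 3 were at 17.1, 12.3 and 13.4 FPKM, and CITED2-deficient libraries 1 to 3 at 63.3, 39.8 and 48.2 FPKM. Library 1 was the highest in both genotypes and library 2 the lowest. The means of 14.3 ± 2.54 and 50.4 ± 11.9 FPKM (SD, n = 3) gave a log2 difference of 1.74 (SE 0.16), or 1.57 without CITED2-deficient library 1.

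*Spp1* (ENSMUSG00000029304, chr5:104435118-104441050, plus strand) encodes osteopontin, a secreted phosphoprotein made by macrophages and bone cells. Per length it was by far the most abundant of the set, at 1239.8, 1201 and 1132 FPKM in control libraries 1 to 3 and 1432, 1291 and 1312 FPKM in CITED2-deficient libraries 1 to 3. By mean FPKM it ranked 48 of 22248 genes in controls and 43 in CITED2-deficient BMDMs. The groups stood just apart, the lowest CITED2-deficient library being 1.04 times the highest control. The means of 1191 ± 54.9 and 1345 ± 75.8 FPKM (SD, n = 3) gave a log2 difference of 0.18 (SE 0.046), which was 0.13 without CITED2-deficient library 1 and 0.28 with median-ratio scaling.

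*Bgn* (ENSMUSG00000031375, chrX:73483602-73495933, plus strand) encodes biglycan, a small leucine-rich proteoglycan that can also act as a ligand of TLR2 and TLR4. It was at 29.2, 23.9 and 25.7 FPKM in control libraries 1 to 3 and at 119, 81.7 and 88.4 FPKM in CITED2-deficient libraries 1 to 3. The lowest CITED2-deficient library was 2.80 times the highest control. The means were 26.2 ± 2.68 and 96.2 ± 19.6 FPKM (SD, n = 3), and the log2 difference was 1.82 (SE 0.13), or 1.66 without CITED2-deficient library 1.

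*Dcn* (ENSMUSG00000019929, chr10:97479609-97518143, plus strand) encodes decorin, the related proteoglycan that coats collagen fibrils and binds TGF-beta. Its levels were 3.33, 3.64 and 3.76 FPKM in control libraries 1 to 3 and 6.83, 6.18 and 7.53 FPKM in CITED2-deficient libraries 1 to 3. Unlike the other 9 genes it was highest in CITED2-deficient library 3, and library 1 was 0.997 times the mean of the other two. The means of 3.57 ± 0.222 and 6.85 ± 0.671 FPKM (SD, n = 3) gave a log2 difference of 0.78 (SE 0.092), the same to 2 decimals without library 1.

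On the per-length FPKM scale, the order of the group means in controls was *Spp1*, *Thbs1*, *Bgn*, *Sparc*, *Fn1*, *Fstl1*, *Lox*, *Dcn*, *Fbn1* and *Postn*. The control ranges of *Sparc* and *Fn1*, and of *Fn1* and *Fstl1*, overlapped, so these neighbours were not separated beyond their spread. In CITED2-deficient BMDMs the order was the same except that *Postn* came just above *Fbn1*, with overlapping ranges. There, *Thbs1*, *Bgn*, *Sparc*, *Fn1* and *Fstl1* formed a run in which each overlapped the next. The 9 genes without *Spp1* summed to 118 to 145 FPKM per control library and to 384 to 587 FPKM per CITED2-deficient library.

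The gene with the closest pattern over the 6 libraries was sought by the root mean square distance between log2(FPKM + 1) profiles, each set relative to its control mean. It was *Col12a1* for *Fn1* (distance 0.099 log2 units), *Timp3* for *Sparc* (0.16), *Col5a1* for *Postn* (0.16) and *Col5a2* for *Lox* (0.13). It was *Grem1* for both *Thbs1* (0.042) and *Fbn1* (0.054), and *Tle1* for *Dcn* (0.046). The fibrillar collagen gene *Col3a1* was among the nearest 5 for 3 genes, *Sparc*, *Fn1* and *Bgn*. *Col12a1* was among them for *Fn1* and *Bgn*, *Col5a2* for *Sparc* and *Lox*, and *Grem1* and *Csf1* for *Thbs1* and *Fbn1*. A small difference gives a small distance to many genes, so the distance for *Dcn* is not comparable with that for *Sparc*.

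Other genes of the matrix, listed by family and function with earlier results of these data known, were counted next. Of 101 listed genes 96 were in the table and 62 passed the filter. In CITED2-deficient BMDMs, 43 of the 62 (69.4%) were higher by limma at an adjusted p under 0.05, beside 16.7% of all tested genes, and 12 (19.4%) were lower, beside 34.6%. Of the 62, 7 averaged under 1 FPKM in controls and passed the filter only through the CITED2-deficient group. Of the other 55, 37 were higher (67.3%) and 12 lower, beside 15.7% higher over all genes that averaged at least 1 FPKM in each group, a count added after the data were seen. All 43 higher genes had groups that did not overlap. The call rests on the same FPKM values as this separation, so it is no separate evidence. The share without overlap among all genes called higher was not counted. The count of lower genes was 7 without control library 1, control library 2, CITED2-deficient library 2 or CITED2-deficient library 3, and 6 with median-ratio scaling. The median log2 difference of the 62 was 0.72.

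**Figure D2:**
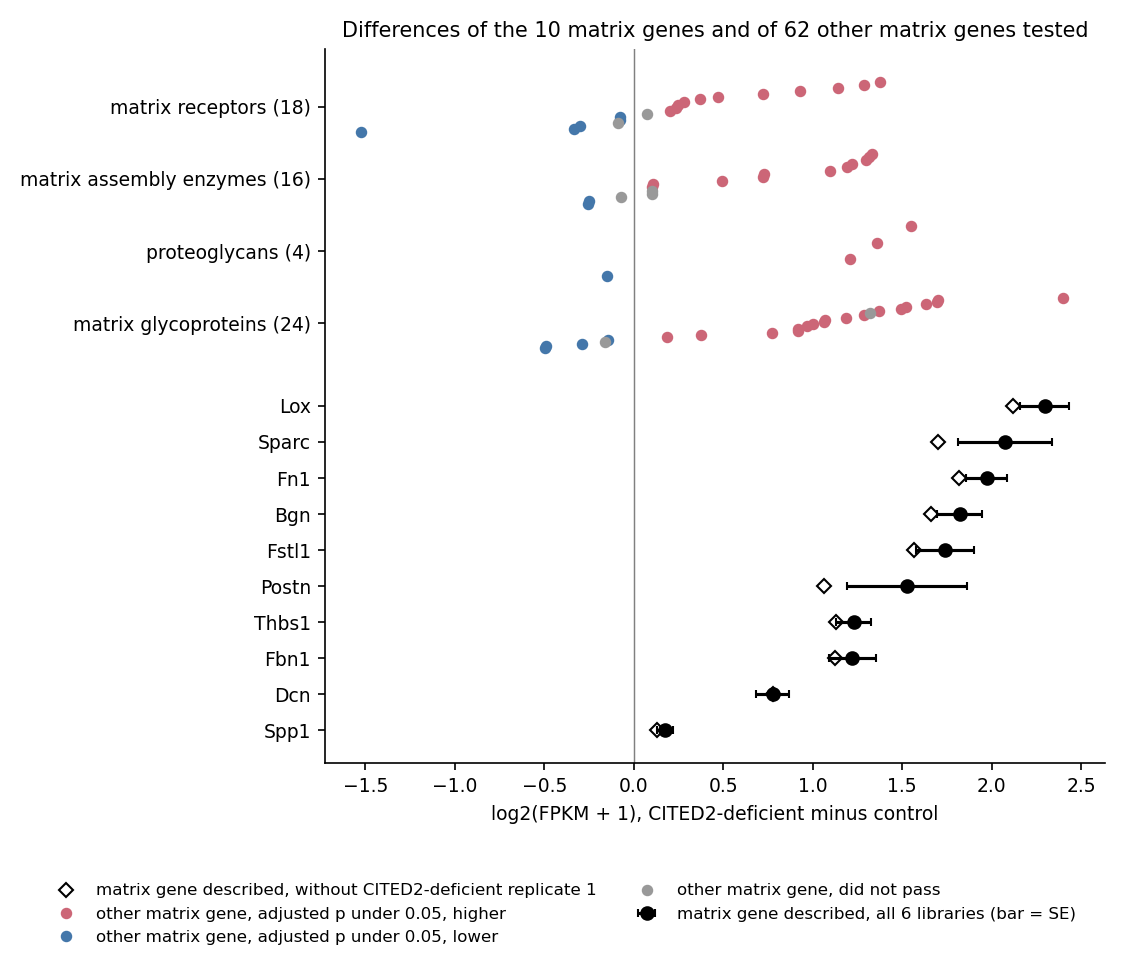
Difference in log2(FPKM + 1), CITED2-deficient minus control (x axis), for the 10 matrix genes (black, bar = SE of the limma fit, and an open diamond without CITED2-deficient replicate 1) and for 62 other matrix genes in 4 lists, coloured by their call. All 10 black points lie to the right of 0, from 0.18 for *Spp1* to 2.30 for *Lox*, and 43 of the 62 other genes were called higher.

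Among other matrix glycoproteins, 18 of 24 tested genes rose and 4 fell, beside 16.7% and 34.6% of all tested genes. Of those that rose, *Fbln5* and *Wisp1* were under 1 FPKM in controls and passed the filter only through the CITED2-deficient group. *Thbs2*, the thrombospondin most closely related to *Thbs1*, rose from 1.02 ± 0.135 to 10.3 ± 5.24 FPKM (SD, n = 3), a log2 difference of 2.40 (SE 0.25, limma adjusted p = 5.9e-05). *Igfbp7*, *Fbln2* (fibulin-2) and *Ctgf* rose by log2 differences of 1.70, 1.69 and 1.63. Against these, *Tgfbi*, an integrin-binding matrix protein, fell from 169 ± 0.947 to 120.04 ± 4.32 FPKM (log2 difference -0.49, SE 0.033, limma adjusted p = 3.0e-06). *Emilin2* fell by 0.29 on the log2 scale. *Ltbp3* was called lower at -0.15 and lost this call under most other settings, including each fit without 1 library.

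*Ibsp*, which encodes bone sialoprotein, a secreted phosphoprotein of mineralised matrix related to *Spp1*, is given because of its values. It had 0, 0 and 1 fragments in control libraries 1 to 3 and 719, 4 and 0 fragments in CITED2-deficient libraries 1 to 3. The gene passed the filter through CITED2-deficient library 1 and was not called (limma adjusted p = 0.23).

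Of 4 tested proteoglycans, *Ogn* (osteoglycin), *Vcan* (versican) and *Hspg2* (perlecan) rose, by log2 differences of 1.55, 1.36 and 1.21. Over all tested genes, 16.7% were higher and 34.6% lower. *Ogn* and *Vcan* were under 1 FPKM in controls and passed the filter only through the CITED2-deficient group. *Srgn*, which encodes serglycin, the intracellular granule proteoglycan of blood cells, fell by 0.15 on the log2 scale, a call that was lost with median-ratio scaling. *Srgn* was by far the most abundant of the 4, at 123 ± 5.09 and 111 ± 2.93 FPKM (SD, n = 3), whereas *Vcan* went from 0.755 ± 0.194 to 3.49 ± 0.287 FPKM.

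Of 16 tested enzymes and chaperones of matrix assembly, 11 rose (68.8%) and 2 fell (12.5%), beside 16.7% and 34.6% of all tested genes. *Loxl1* and *Loxl2*, relatives of *Lox*, rose by log2 differences of 1.32 and 1.30. *Loxl2* was under 1 FPKM in controls and passed the filter only through the CITED2-deficient group. *Serpinh1*, the collagen chaperone, rose by 1.33, and *Pcolce*, an enhancer of procollagen processing, by 1.22. *Plod1*, a collagen lysyl hydroxylase, fell by 0.25 on the log2 scale.

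Of 18 tested matrix receptors 11 rose (61.1%) and 5 fell (27.8%), beside 16.7% and 34.6% of all tested genes. Their median log2 difference of 0.24 was the smallest of the 4 lists. *Itga5*, the alpha chain of the fibronectin receptor, rose from 48.2 ± 1.16 to 92.6 ± 3.36 FPKM (SD, n = 3), a log2 difference of 0.93 (SE 0.039, limma adjusted p = 1.1e-07). *Sdc3* (syndecan-3) rose from 728 ± 10.0 to 1609 ± 56.7 FPKM. *Mrc2* and *Sdc2* rose by log2 differences of 1.37 and 1.28 from low levels. *Sdc2* was under 1 FPKM in controls and passed the filter only through the CITED2-deficient group. *Stab1*, a scavenger receptor that takes up SPARC, fell from 2014 ± 64.7 to 699 ± 1.36 FPKM (log2 difference -1.52, SE 0.029, limma adjusted p = 1.0e-09). *Tlr2*, a receptor of biglycan, and *Cd36*, a receptor of thrombospondin-1, fell by 0.33 and 0.30 on the log2 scale.

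*Tlr4*, another receptor of biglycan, rose from a mean of 78.7 to 93.5 FPKM, a log2 difference of 0.25 (SE 0.044, limma adjusted p = 0.0015). Named after their values were seen, like *Tlr4*, *Cd47*, *Cd44*, *Itgb1* and *Itgav*, receptors of thrombospondin-1, osteopontin or fibronectin, rose by log2 differences of 0.47, 0.28, 0.24 and 0.20. In the same list, *Itgb5* and *Sdc4* were called lower, each by a log2 difference of -0.079. With median-ratio scaling these were 0.025 and 0.024. *Itgb3* and *Itga9* were not called. CITED2-deficient library 1 was 1.01 times the mean of libraries 2 and 3 for the median receptor, against 1.39 for the median of the 10 matrix genes and 1.34 for the other glycoproteins. It was the highest library of its group for 37.6% of all tested genes and for 34.5% of the genes called higher, and its level was over 1.2 times the mean of the other two for 9.08% of tested genes and for 8 of the 10 matrix genes. In controls, library 2 was the lowest for 8 of the 10 and for 39.3% of all tested genes.

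**Figure D3:**
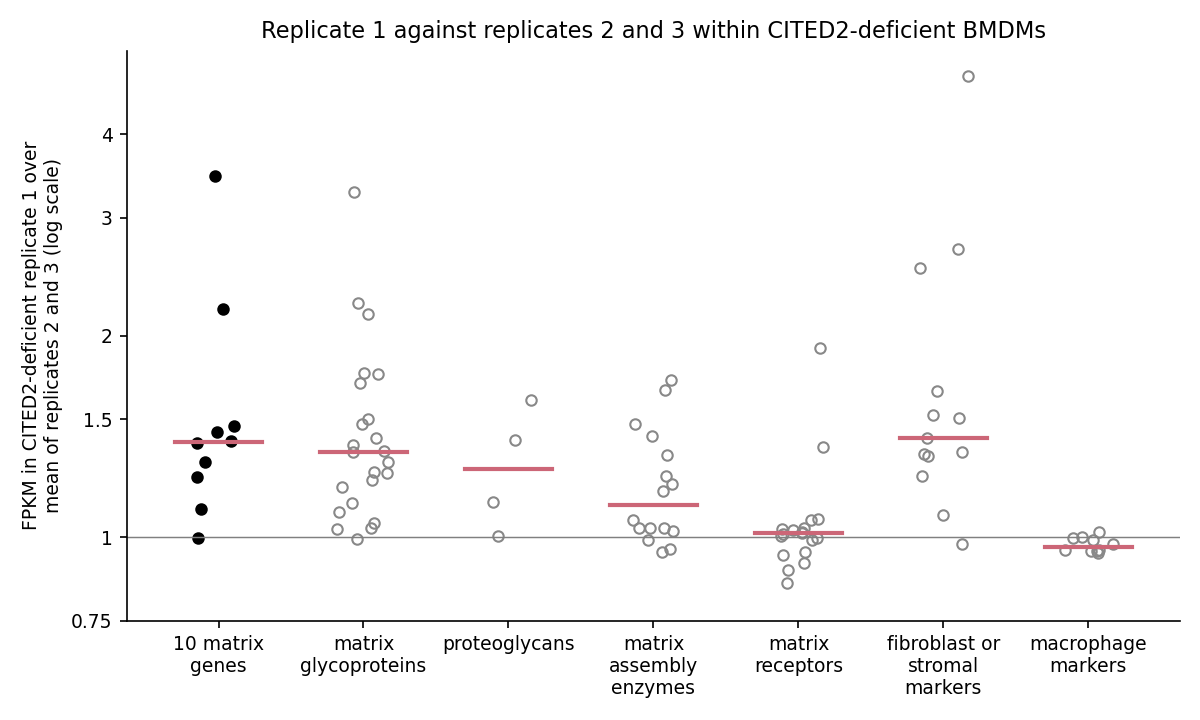
FPKM of CITED2-deficient replicate 1 divided by the mean of replicates 2 and 3 (y axis, log scale), 1 point per gene tested, for the 10 matrix genes (black) and for other gene lists (open), with the median of each list in red. *Ibsp*, at 319.5 times, lies off the scale and is not drawn, but enters the median of its list. The medians lie at 1.39 for the 10 matrix genes and 1.41 for fibroblast or stromal markers, and at 0.967 for macrophage markers.

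Among markers of other cells that a bone marrow culture can hold, the summed FPKM of the stromal and of the osteoblast lists was higher in CITED2-deficient BMDMs. Library 1 was the highest in both sums. Of 18 fibroblast or stromal markers 13 were tested. All 13 were higher in CITED2-deficient BMDMs (limma, adjusted p under 0.05), beside 16.7% of all tested genes. Their median log2 difference was 1.57. *Pdgfrb* and *Gas1* were under 1 FPKM in controls and passed the filter only through the CITED2-deficient group. *Col1a1*, a chain of type I collagen, was at 15.5, 14.2 and 16.6 FPKM in control libraries 1 to 3 and at 305, 62.0 and 62.6 FPKM in CITED2-deficient libraries 1 to 3. Its log2 difference was 2.71 (SE 0.51), or 1.95 without CITED2-deficient library 1. *Col1a2*, *Col5a2*, *Col3a1*, *Col5a1*, *Acta2* and *Cxcl12* rose by 1.57 to 2.37, *Prrx1*, *Cdh11*, *Pdpn*, *Pdgfrb*, *Gas1* and *Pdgfra* by 0.65 to 1.29. *Thy1*, *Twist1*, *Fap*, *Lepr* and *Tagln* were below the filter, and none of them was at 0 in any group. The groups overlapped for *Thy1*, *Lepr* and *Tagln* and did not overlap for *Twist1* and *Fap*.

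The summed FPKM of the 18 stromal markers ran from 82.1 to 94.9 in controls and from 279.7 to 704 in CITED2-deficient libraries. Library 1 held the top value of 704, 2.48 times the mean of the other two, and control library 2 held the lowest. Most of the 704 FPKM was *Col1a1* (305) and *Col1a2* (175). Gene by gene, the ratio of library 1 to the mean of the other two ran from 0.976 to 4.89 over the 13 tested markers, with a median of 1.41. The sum was 4.71 times the control mean, or 3.16 times without CITED2-deficient library 1. The 9 matrix genes without *Spp1* summed to 3.44 times the control mean, and to 2.96 times without that library. The part of the stromal markers in the matrix gene levels was not tested.

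The osteoblast markers summed to 2.38 to 3.54 FPKM in controls and to 38.0, 7.48 and 6.81 FPKM in CITED2-deficient libraries 1 to 3. Of the 5 markers, *Alpl*, the alkaline phosphatase of bone-forming cells, and *Runx2*, their master regulator, were tested. Both were higher, beside 16.7% of all tested genes. In CITED2-deficient library 1, *Alpl* alone made up 31.6 of the 38.0 FPKM. *Alpl* rested on 17, 12 and 20 control fragments and on 636, 70 and 57 CITED2-deficient fragments, and its log2 difference of 2.00 was 1.03 without library 1. *Sp7*, *Phex* and *Bglap* were below the filter, and their groups overlapped. *Bglap*, the defining product of mature osteoblasts, was at 0 in control library 2 and in CITED2-deficient libraries 2 and 3 and at most 0.199 FPKM elsewhere. The part of these markers in the matrix gene levels was not tested either.

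The macrophage markers, led by *Adgre1* and *Cd68*, were far more abundant in every library, at 6282 to 6342 FPKM in controls and 5949 to 6037 FPKM in CITED2-deficient libraries. Of 10 markers 2 rose, 5 fell and 3 were not called, while 16.7% of all tested genes were higher and 34.6% lower. *Lyz2*, the locus that drives Cre, was at 30.6 to 32.5 FPKM in controls and 9.39 to 10.04 FPKM in CITED2-deficient libraries. The granulocyte precursor markers, led by *S100a8* and *Ltf*, summed to 485 to 539 and 430.2 to 499.8 FPKM. Of these markers 6 of 7 (85.7%) were lower, beside 34.6% of all tested genes, and *Ltf* was higher.

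The endothelial markers summed to 6.04 to 6.52 FPKM in controls and 26.9 to 32.4 FPKM in CITED2-deficient libraries, mostly *Kdr*. In this sum CITED2-deficient library 1 was the lowest of the 3. *Kdr* and *Cdh5* were tested and both were higher, beside 16.7% of all tested genes. *Cdh5* was under 1 FPKM in controls and passed the filter only through the CITED2-deficient group. *Tek*, *Tie1*, *Emcn*, *Sox17* and *Egfl7* stayed below the filter. The megakaryocyte markers summed to 316 to 345 FPKM in controls and 79.6 to 91.3 FPKM in CITED2-deficient libraries, most of it *Pf4*. The fall was that of *Pf4* (log2 difference -2.07), while *Itga2b* and *Ppbp* rose by log2 differences of 0.38 and 0.69 from low levels. The adipocyte markers *Cfd*, *Adipoq*, *Plin1* and *Lep* summed to 6.55, 9.76 and 0.154 FPKM in control libraries 1 to 3 and to at most 0.235 FPKM in CITED2-deficient libraries. B cell markers (*Cd79b*, *Cd79a*), T cell markers (mostly *Cd4*, then *Cd3e*) and erythroid markers (*Hbb-bs*, *Alas2*) summed to at most 7.66 FPKM in any library. The part of these lists in the matrix gene levels was not tested.

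**Figure D4:**
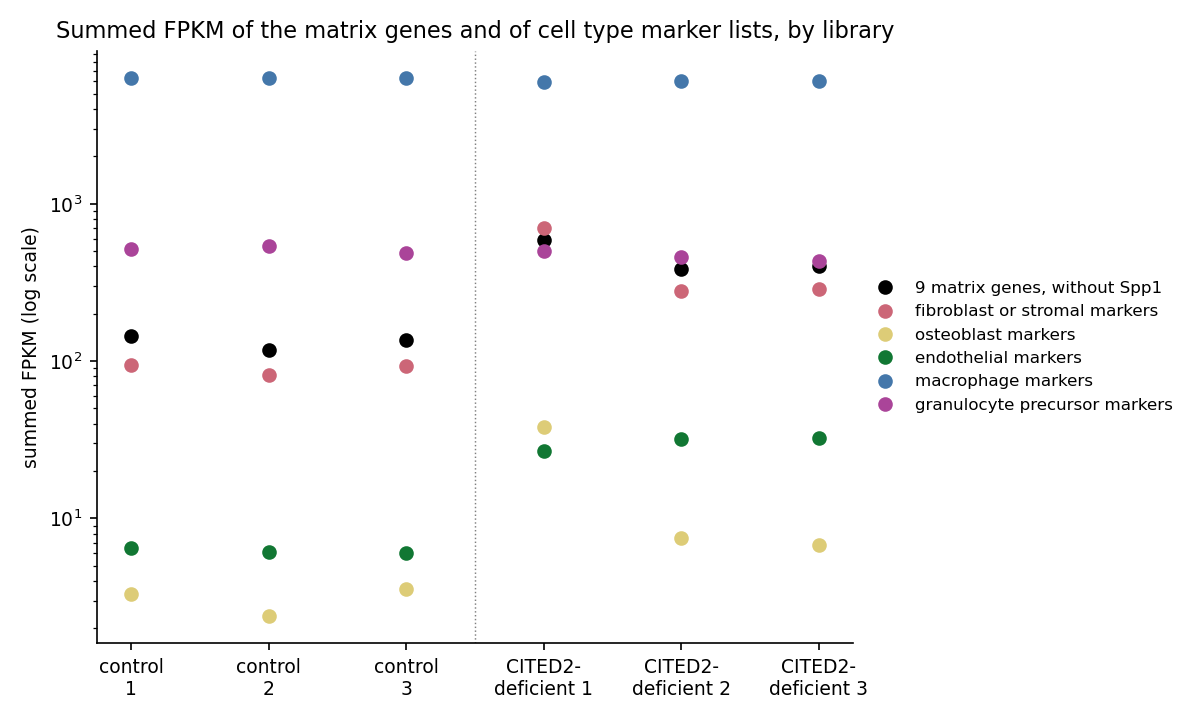
Summed FPKM (y axis, log scale) in each of the 6 libraries for the 9 matrix genes without *Spp1* (black) and for lists of cell type markers (coloured). The black and the stromal (red) sums are both highest in CITED2-deficient replicate 1, at 587 and 704 FPKM, whereas the macrophage sums lie between 5949 and 6342 FPKM in all libraries.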

How the data were processed

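Total RNA of 3 control (Lyz2cre) and 3 CITED2-deficient (Cited2 fl/fl:Lyz2cre) BMDM cultures was sequenced with a stranded total RNA kit after rRNA removal. The authors aligned reads to mm10 with STAR and deposited gene-level FPKM from Cuffdiff with a GENCODE annotation. Versions and release: not given in the sources used here. Nothing was repeated from the reads. The columns are named for Mrg1 and LysM, older names of *Cited2* and *Lyz2*.

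A gene entered the test if its FPKM averaged 1 or more (11687 of 22248). Values of log2(FPKM + 1) went into limma 3.58.1 (R 4.3.3) with the trend option, and p-values were adjusted over all these genes by Benjamini-Hochberg (threshold 0.05). This scale understates the change of low genes. The fit was tested on simulated data with known changes. FPKM steps gave whole fragment numbers (tolerance 0.02) in all libraries for 96.1% of the 22239 genes matched to GENCODE vM21, whose mm10 positions are printed. Such fragments are not independent molecules, and they served as the input of limma-voom. The distance between 2 gene patterns was the root mean square over the 6 libraries.

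The 10 matrix genes and all lists were chosen with earlier results of these data known. Named besides the 10 were, per matrix list, up to 4 largest rises and up to 3 largest falls among called genes without overlap, all stromal markers, the 2 most abundant genes of other marker lists, and the genes nearest in pattern. Some genes under these rules are not reported here. The alternatives were pseudocounts of 0.1 and 0.5, no filter, a filter of 5, median-ratio and quantile scaling, no trend, array weights, a replicate block, limma-voom and leaving out each library.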

Additional observations from a re-analysis of the deposited data

How the results depend on the processing

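The median log2 difference of the 10 matrix genes was 1.35 to 1.83 with each library left out in turn. No difference changed direction under any alternative run. For the runs with 1 library left out this was fixed beforehand, because the groups of all 10 genes do not overlap. Over all tested genes, the calls with 1 library left out numbered 5211 to 5475 (5994 with all), of which 1776 to 1832 were higher and 3419 to 3684 lower. Median-ratio scaling gave 2490 lower genes instead of 4044, and 6 instead of 12 lower genes among the other matrix genes. With 1 library left out, the other matrix genes gave 41 to 42 higher and 7 to 11 lower, the fewest without control library 1, control library 2, CITED2-deficient library 2 or CITED2-deficient library 3. The causes of these shifts were not tested. Of 581 values for 37 genes followed over the alternatives, 569 kept their direction and call and 12 lost the call, *Srgn* with median-ratio scaling (-0.047) and *Ltbp3* in the other 11. The labels give both genotypes replicate numbers 1 to 3. Over all tested genes, the deviations of same-numbered libraries from their group means correlated at 0.014, 0.0078 and 0.040, which shows no pairing across the genes as a whole. Whether same-numbered libraries share an effect on some of the genes was not tested. With a replicate block, 5708 genes were called (1895 higher, 3813 lower), and 43 other matrix genes were higher and 10 lower. Depth limited *Postn*, with 9 to 21 fragments per control library.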
